A study of Mus musculus with 20 samples.

Results

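Cytotoxic granules work with more proteins than granzymes and perforin. Here 9 genes for other proteins in or around these granules were followed through bulk RNA-seq of mouse intestinal T cells. They were the serpin genes Serpinb9, Serpinb6a, Serpinb6b and Serpina3g, the proteoglycan gene Srgn, the cathepsin genes Ctsw and Ctsc, and the granule membrane genes Lamp1 and Nkg7. The rule that picked them out was the gene symbol, in a choice made with earlier results of these data known. All 9 were found in every table, among 25933 genes in all, and all 9 passed the filter on low values in each of the 4 comparisons.

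A cytotoxic granule is a secretory lysosome that is released toward a target cell. Serglycin, the product of Srgn, binds granzymes and perforin through its chondroitin sulfate chains. Cathepsin C, the product of Ctsc, cuts the short activation peptide from granzymes. Cytosolic serpins such as the product of Serpinb9 trap granzyme B or cathepsins that leak from granules, and so protect the killer cell itself. LAMP1 lines the granule membrane and reaches the cell surface when granules are released, and NKG7 is a granule membrane protein needed for efficient release.

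The cells were TCRαβ+CD8αα+ intraepithelial lymphocytes (IELs), which live between the epithelial cells of the gut, taken at steady state from the small intestine. Bcl6-RFP/RFP reporter mice gave 3 libraries of RFP+CD160+ IELs and 3 of RFP-CD160- IELs, where RFP reports Bcl6. Total CD8αα+ αβ IELs gave 2 libraries each of Bcl6fl/fl Cd8cre, Prdm1fl/fl Cd8cre and Tcf7fl/fl Cd8cre mice, called knockouts below. Each knockout was set against 2 libraries of floxed littermates (Bcl6fl/fl, Prdm1fl/fl or Tcf7fl/fl). BCL6, BLIMP1 (the product of Prdm1) and TCF1 (the product of Tcf7) act as transcription factors. The questions were how the RFP+CD160+ and RFP-CD160- subsets differ and what the loss of each factor changes. Every knockout genotype carries Cd8cre, a recombinase driven by Cd8 regulatory sequence, and no littermate genotype does, so Cre itself and the loss of the gene cannot be told apart. The labels give no age or sex and do not say whether libraries came from separate animals, so p-values measure only the spread between these libraries.

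Levels were FPKM, reads per gene length and depth, in the RFP and Bcl6 experiments. In the Prdm1 and Tcf7 experiments they were a signal, reads divided by 1 size factor per library with no gene length. The RFP+CD160+ libraries held 14.4 to 16.9 and the RFP-CD160- libraries 16.4 to 17.2 times 1000000 reads. Libraries of the knockout experiments were deeper, at 21.9 to 23.0 in the same unit for Bcl6, 30.1 to 38.4 for Prdm1 and 41.0 to 48.2 for Tcf7. The deleted gene averaged a signal of 501 in Prdm1 knockouts against 5604 in littermates, and of 7875 in Tcf7 knockouts against 15518 in littermates. Bcl6 averaged 0.594 FPKM in Bcl6 knockouts against 0.754 FPKM in littermates, under the filter of 1 FPKM, so it checks those labels only weakly. The γδ receptor chain genes Trdc, Tcrg-C1, Tcrg-C2 and Tcrg-C4, and Trac, were not among the genes given for any comparison. They could not be analysed, while Cd3e, Cd3g and Cd8a were detected in every library of the 4 comparisons.

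In RFP+CD160+ cells all 4 serpin genes, Srgn and Nkg7 were lower, and Ctsw, Ctsc and Lamp1 were higher. Serpinb6b fell by 58.6%, Serpinb9 fell by 52.0% and Nkg7 fell by 51.4% in mean FPKM, the largest differences of the members. None of the 9 genes overlapped between the groups. With limma on log2(FPKM + 1) and a Benjamini-Hochberg adjusted p under 0.05, 3 members were called higher and 6 lower. Of all 9717 genes tested, 16.4% were called higher, 21.6% lower and 38.0% in either direction. Without overlap were 23.4% of all genes on the higher side, 28.5% on the lower side and 51.9% in either direction. The median log2 fold change was -0.60 over the members and -0.03 over all genes tested. In bulk libraries, fewer cells that express a gene and less RNA per cell cannot be told apart.

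**Figure D1:**
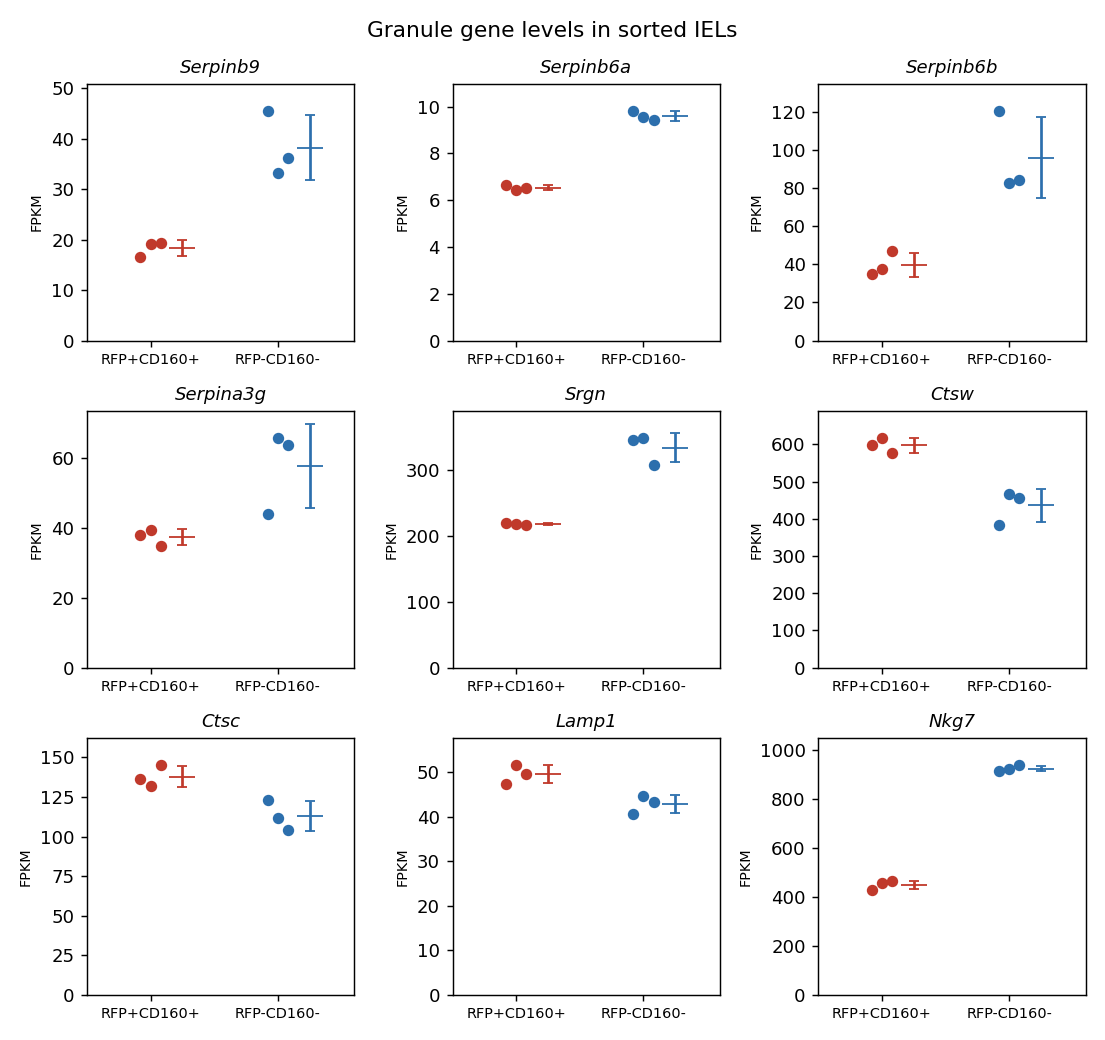
FPKM (y axis, from 0) of the 9 genes in each RFP+CD160+ library (red) and each RFP-CD160- library (blue), with the mean and SD as a bar beside the points (n = 3 per group). The groups are separate in every panel, with RFP+CD160+ below RFP-CD160- except for Ctsw, Ctsc and Lamp1.

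Serpinb9, whose product inhibits granzyme B, lies on chromosome 13 (33003250 to 33017957, plus strand, GRCm38). It stood at 16.5, 19.1 and 19.3 FPKM in RFP+CD160+ libraries, against 45.4, 33.1 and 36.1 FPKM in RFP-CD160- libraries. The lowest RFP-CD160- library was therefore above the highest RFP+CD160+ library. The log2 fold change was -1.01 ± 0.11 (SE, adjusted p in limma = 3.0e-04). Serpinb6b, a mouse relative of the human inhibitor gene SERPINB6, lies 24.2 kb from Serpinb9 on the same strand (chromosome 13, 32965209 to 32979067). It was at 34.7, 37.5 and 47.0 FPKM in RFP+CD160+ libraries, against 120.6, 82.9 and 84.6 FPKM in RFP-CD160- libraries. RFP-CD160- replicate 1 stood above the other 2, and it was also the highest for Serpinb9. The log2 fold change of Serpinb6b was -1.24 ± 0.16 (SE, adjusted p = 5.8e-04), the largest of the members in this comparison.

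The promoters of these neighbours are shown because Serpinb9 and Serpinb6b had the lowest log2 fold changes of the members in the Prdm1 knockout, described below, as well as in the sorted cells with Nkg7. Each is a RefSeq window on GRCm38.p6 from 250 bases before to 50 bases after the gene start, at chr13:33004291-33004590 for Serpinb9 and chr13:32965011-32965310 for Serpinb6b, both on the plus strand and written 5′ to 3′. Capitals mark GTGAAAG, the core of the site that BLIMP1 binds, searched on both strands and found as CTTTCAC at bases 204 to 210 of the Serpinb9 window. GTGAAAG was in 4.24% of 32851 windows of this length, and its letters overlap with sites of interferon regulatory factors.
Serpinb9: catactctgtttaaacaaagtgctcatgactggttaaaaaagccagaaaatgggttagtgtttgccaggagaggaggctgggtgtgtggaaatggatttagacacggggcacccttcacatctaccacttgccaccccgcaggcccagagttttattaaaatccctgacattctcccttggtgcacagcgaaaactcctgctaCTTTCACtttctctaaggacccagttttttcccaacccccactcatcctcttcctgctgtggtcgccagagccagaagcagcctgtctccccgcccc
Serpinb6b: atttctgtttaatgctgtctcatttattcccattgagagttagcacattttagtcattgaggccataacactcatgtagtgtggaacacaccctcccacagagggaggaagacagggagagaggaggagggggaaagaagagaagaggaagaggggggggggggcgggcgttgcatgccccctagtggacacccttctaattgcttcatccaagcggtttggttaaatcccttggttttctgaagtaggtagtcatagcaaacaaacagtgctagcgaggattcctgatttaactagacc
The RefSeq starts of these genes lie downstream of the first base of the GENCODE spans given above, so the windows fall partly or wholly inside those spans.
Windows were found for 8 of the 9 members, 10 windows in all, and Serpinb9 held the only GTGAAAG among them. CTTTGA, the core of the TCF1 site, was in 16.0% of all windows and among the members in Lamp1. TTCCTNGAA, a BCL6 pattern whose letters overlap with STAT sites, was in 1.59% of all windows and among the members in Ctsc and Nkg7. A match is a description of letters in a window and not a measured binding site.

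The other serpin genes had smaller fold changes. Serpinb6a (chromosome 13, 33917918 to 34002794, minus strand) had 6.64, 6.44 and 6.52 FPKM in RFP+CD160+ libraries, against 9.81, 9.57 and 9.41 FPKM in RFP-CD160- libraries. Its replicates were close together in both groups, and its log2 fold change was -0.49 ± 0.05 (SE, adjusted p = 2.5e-04). Serpina3g, which in the mouse encodes an inhibitor of cathepsins in lymphocytes (chromosome 12, 104236245 to 104241939), had 38.1, 39.4 and 34.8 FPKM in RFP+CD160+ libraries, against 44.0, 65.8 and 63.9 FPKM in RFP-CD160- libraries. RFP-CD160- replicate 1 lay near the RFP+CD160+ range, and the log2 fold change was -0.60 ± 0.14 (SE, adjusted p = 0.012). These genes have close relatives, which makes their single values less certain. The longest transcript of Serpina3g matched that of Serpina3f at 88.6% identity over 1757 bases, and those of Serpinb6a and Serpinb6b matched Serpinb6c at 86.4% over 1271 and 86.5% over 1180 bases. Serpinb6a also overlaps Nqo2 on the opposite strand, and whether the counting used strand is not given in the sources used here.

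Srgn, the granule proteoglycan gene (chromosome 10, 62493833 to 62527451), had 219.7, 217 and 216 FPKM in RFP+CD160+ libraries, against 345, 347 and 307 FPKM in RFP-CD160- libraries. The RFP+CD160+ replicates were close together, with an SD of 1.88 FPKM, and the log2 fold change was -0.61 ± 0.06 (SE, adjusted p = 1.8e-04). Nkg7 (chromosome 7, 43437073 to 43438249) had 429, 454 and 463 FPKM in RFP+CD160+ libraries, against 914, 921 and 936 FPKM in RFP-CD160- libraries. Its replicates were the closest relative to the difference, with a log2 fold change of -1.04 ± 0.06 (SE) and the smallest adjusted p of the members, 8.0e-06.

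Ctsw, Ctsc and Lamp1 rose. Ctsw, a papain-like cathepsin gene of cytotoxic lymphocytes (chromosome 19, 5465043 to 5468507), had 599, 616 and 575 FPKM in RFP+CD160+ libraries, against 384, 466 and 457 FPKM in RFP-CD160- libraries (log2 fold change 0.46 ± 0.08, SE, adjusted p = 0.0038). Ctsc (chromosome 7, 88278085 to 88310888) had 136.5, 132 and 145 FPKM in RFP+CD160+ libraries, against 123, 112 and 104 FPKM in RFP-CD160- libraries (log2 fold change 0.28 ± 0.07, SE, adjusted p = 0.015). Ctsc was thus higher in the cells in which the granzyme genes, given below, were lower. Lamp1 (chromosome 8, 13159161 to 13175338) had 47.4, 51.5 and 49.6 FPKM in RFP+CD160+ libraries, against 40.5, 44.6 and 43.4 FPKM in RFP-CD160- libraries (log2 fold change 0.20 ± 0.06, SE, adjusted p = 0.023). Lamp1 was no longer called without RFP+CD160+ replicate 2 (adjusted p = 0.076), RFP+CD160+ replicate 3 (0.053) or RFP-CD160- replicate 3 (0.051), nor was Ctsc without RFP-CD160- replicate 2 (0.0502). The Lamp1 gene shares 3317 bases with Grtp1 on the opposite strand.

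The order of levels differed between the subsets. In RFP+CD160+ cells Ctsw led with a mean of 597 FPKM, ahead of Nkg7 (449 FPKM), Srgn (218 FPKM) and Ctsc (138 FPKM). In RFP-CD160- cells Nkg7 led with 924 FPKM, ahead of Ctsw (436 FPKM), Srgn (333 FPKM) and Ctsc (113 FPKM). In that group the libraries of Ctsc overlapped with those of Serpinb6b, and those of Serpina3g, Lamp1 and Serpinb9 overlapped from each to the next. In RFP+CD160+ cells the only overlap between neighbours in the order was that of Serpinb6b and Serpina3g. Serpinb6a was last in both. Together the 9 genes took 0.640 to 0.659% of all FPKM in RFP+CD160+ libraries and 0.732 to 0.786% in RFP-CD160- libraries.

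Serpinb9 was also set beside the gene of its target protease. Gzmb, for granzyme B, was at 115.7, 137 and 267 FPKM in RFP+CD160+ libraries, against 7302, 6209 and 5986 FPKM in RFP-CD160- libraries. Its log2 fold change was -5.31 ± 0.27 (SE, adjusted p = 4.8e-06), against -1.01 for Serpinb9. Per 1000 FPKM of Gzmb there were 143, 139 and 72.4 FPKM of Serpinb9 in RFP+CD160+ libraries, against 6.22, 5.33 and 6.03 FPKM in RFP-CD160- libraries. The ratio averaged 118 ± 39.8 in RFP+CD160+ and 5.86 ± 0.470 in RFP-CD160- libraries (SD, n = 3 each). The groups did not overlap, and the two-sided exact permutation p was 0.1, the smallest that 3 against 3 libraries allow.

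**Figure D2:**
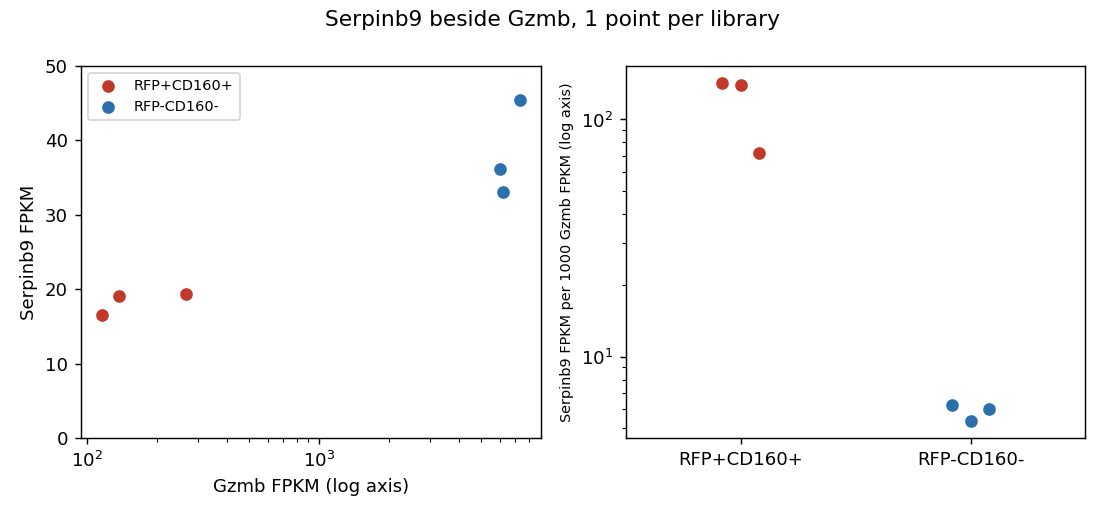
Left, Serpinb9 FPKM (y axis) against Gzmb FPKM (x axis, log) in each RFP+CD160+ (red) and RFP-CD160- (blue) library; right, Serpinb9 FPKM per 1000 Gzmb FPKM (log axis). The ratio lies between 72.4 and 143 in RFP+CD160+ libraries and between 5.33 and 6.22 in RFP-CD160- libraries.

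The rest of the granule machinery was read from 6 gene lists that exclude the members. Over 63 genes tested, 5 were called higher and 33 lower in RFP+CD160+ cells, with a median log2 fold change of -0.20. Of all genes tested, 16.4% were called higher and 21.6% lower. With library totals rescaled the split of the list genes was 14 higher and 21 lower. Of 6 granzyme and perforin genes tested, 5 were lower. Gzma, for granzyme A, had 73.7, 90.5 and 166 FPKM in RFP+CD160+ libraries, against 15579, 13193 and 13618 FPKM in RFP-CD160- libraries. Gzmk, for granzyme K, was near 0 in RFP+CD160+ libraries (0.288, 0.149 and 0.128 FPKM, against 14.2, 22.0 and 15.5 FPKM in RFP-CD160- libraries). Gzmk passed the filter of 1 FPKM only through the RFP-CD160- libraries, where it is high. Of 22 granule traffic and exocytosis genes, 11 were lower and none was higher. Sytl2, an effector of RAB27, averaged 5.04 ± 0.199 FPKM in RFP+CD160+ and 17.9 ± 0.257 FPKM in RFP-CD160- cells (SD, n = 3 each, log2 fold change -1.65, limma adjusted p = 8.3e-07). Rab27a, whose product docks granules at the membrane, averaged 10.5 ± 0.505 FPKM in RFP+CD160+ and 16.8 ± 0.799 FPKM in RFP-CD160- cells (log2 fold change -0.63, adjusted p = 1.2e-04). Stx11, a syntaxin gene of granule fusion, had a log2 fold change of -0.64 (adjusted p = 2.3e-04).

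The lysosomal lists were more mixed. Of 11 lysosomal protease and cystatin genes, 7 were lower, Ctsb (26.6 ± 1.22 FPKM in RFP+CD160+ and 44.8 ± 0.925 FPKM in RFP-CD160- cells, SD, n = 3 each), Ctsd (48.4 ± 3.14 FPKM in RFP+CD160+, 69.1 ± 3.87 FPKM in RFP-CD160- cells) and Cst3, the cystatin C gene (37.2 ± 3.16 FPKM in RFP+CD160+, 50.7 ± 2.11 FPKM in RFP-CD160- cells), among them, and 1 was higher. Of 12 lysosomal membrane genes, 4 were lower and 2 higher. Laptm5 had a log2 fold change of -0.39 (adjusted p = 0.0017) and Scarb2, the LIMP-2 gene, one of 0.35 (adjusted p = 0.0039). Of 11 genes that build the chondroitin sulfate chains of serglycin, 5 were lower and 2 higher. Csgalnact2, which starts chondroitin chains, had a log2 fold change of -0.99 (adjusted p = 2.2e-04). Xylt2, which starts the linker to the core protein, had one of 0.50 (adjusted p = 5.4e-04). Chst15, a chondroitin sulfotransferase gene, had one of 0.70 (adjusted p = 0.0011). Its level was low, at 1.33 ± 0.125 FPKM in RFP+CD160+ and 0.432 ± 0.0722 FPKM in RFP-CD160- cells. Chst15 passed the filter of 1 FPKM only through the RFP+CD160+ libraries, where it is high, so its call depends on that selection. Of 41 other serpin genes listed, 12 were in this table and Serpina3f alone passed the filter; it was lower (log2 fold change -0.80, adjusted p = 0.020).

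**Figure D3:**
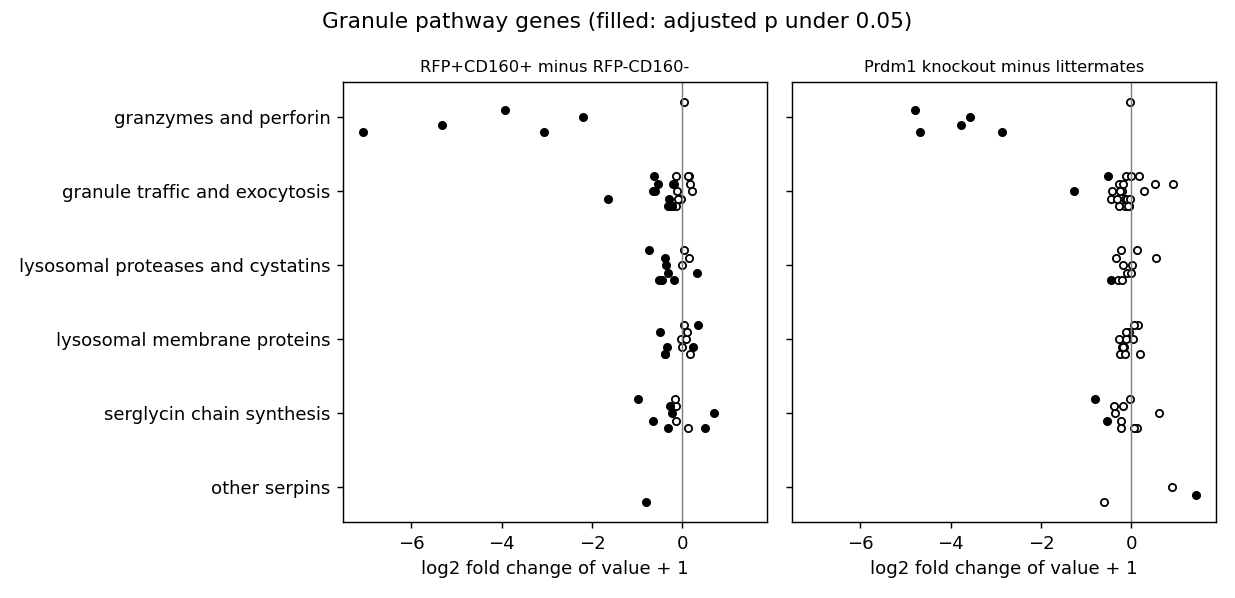
log2 fold change of value + 1 (x axis) for each tested gene of the 6 granule lists (rows), in RFP+CD160+ minus RFP-CD160- cells (left) and in Prdm1 knockouts minus littermates (right). Filled points had a limma adjusted p under 0.05. Granzyme and perforin genes reach -7.07 on the left and -4.79 on the right. Over all 6 lists the median was -0.20 on the left, with 5 of 63 genes called higher and 33 lower. On the right it was -0.15, with 1 of 67 called higher and 10 lower.

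Genes of other cells and of the IELs themselves also differed between the sorted subsets. The 8 epithelial marker genes summed to 36.7 to 46.5 FPKM in RFP+CD160+ and 48.2 to 93.3 FPKM in RFP-CD160- libraries, with 2 of 4 tested genes lower. These were Epcam, with means of 31.8 FPKM in RFP+CD160+ and 46.7 FPKM in RFP-CD160- cells within those sums, and Krt18. Krt18 passed the filter of 1 FPKM only through the RFP-CD160- libraries. The T-cell receptor complex gene Cd3e averaged 167 ± 9.20 FPKM in RFP+CD160+ and 234 ± 11.1 FPKM in RFP-CD160- cells (SD, n = 3 each, log2 fold change -0.48, adjusted p = 6.5e-04). Cd8a (log2 fold change -0.67), Itgae (-0.68), Cd3g (-0.56) and Cd244a (-0.48) were lower as well, 5 of the 6 IEL markers tested, and Cd160, used in the sort, was higher. These differences stand beside -0.49 for Serpinb6a, -0.60 for Serpina3g and -0.61 for Srgn. The 6 IEL markers summed to 1639 to 1758 FPKM in RFP+CD160+ and 2258 to 2343 FPKM in RFP-CD160- libraries. Paneth cell markers summed to 15.1 to 49.7 FPKM in RFP+CD160+ and 29.2 to 212.5 FPKM in RFP-CD160- libraries, with none of 3 called. The myeloid markers summed to 2.27 to 3.60 FPKM in RFP+CD160+ and 3.07 to 4.42 FPKM in RFP-CD160- libraries. Among the other markers Kit (log2 fold change 1.58) and Cd40lg (1.35) were called higher. Pecam1 (-1.18), Cpa3 (-0.50) and the myeloid marker Cd68 (-0.39) were called lower. All FPKM of a library summed to between 238848 and 241207 in RFP+CD160+ and between 262041 and 276608 in RFP-CD160- libraries. Rescaling these totals shifted the median log2 fold change of all genes by 0.15 and left 3 members higher and 6 lower, while calls over all genes turned to 3300 higher and 1171 lower, against 1591 higher and 2098 lower before. The log2 fold changes of Ctsc and Lamp1 were then 0.44 and 0.36. The part of marker genes in the members' differences was not tested.

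A further 2 libraries of the same table are titled LI but labelled as small intestine, and the labels give them no group. Nkg7 was at 271 FPKM in both, Srgn at 163 and 165 FPKM, Ctsc at 73.7 and 74.4 FPKM and Serpinb6b at 26.9 FPKM in both. For these genes, Serpinb6a (4.83 and 4.95 FPKM) and Serpina3g (28.2 and 26.8 FPKM), 6 members in all, both LI libraries were below all 6 libraries of the sorted subsets. Serpinb9 (15.1 and 16.6 FPKM), Ctsw (531 and 514 FPKM) and Lamp1 (42.3 and 43.1 FPKM) had at least 1 LI library within the range of the others. These are descriptions of single libraries, with no test.

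In the Prdm1 knockout, Serpinb6b fell, and no other member passed the test in limma or in edgeR without a replicate block. DESeq2 on the recovered reads called Serpinb6b (adjusted p = 3.5e-04), Serpinb9 (0.0017), Srgn (0.0053) and Nkg7 (0.0017) lower, 4 members against 1. Over all genes DESeq2 called 804 higher and 426 lower of 13624, against 471 and 279 of 10969 in limma. Serpinb9, Srgn and Nkg7 were lower in every knockout library than in every littermate library without passing in limma, and Serpinb6a, Ctsc and Lamp1 were higher in every knockout library. In limma 0 members were called higher and 1 lower, against 4.29% of 10969 genes higher, 2.54% lower and 6.84% in either direction. At an unadjusted p under 0.05, 1 member was higher (Lamp1) and 4 were lower (Serpinb9, Serpinb6b, Srgn and Nkg7). Lamp1 ranked 2166 of the 10969 genes, so at least 2166 genes passed that threshold in either direction. Members called higher also numbered 0 in edgeR without a replicate block and in DESeq2. Groups did not overlap for 3 members on the higher and 4 on the lower side, against 21.8%, 30.6% and, in either direction, 52.4% of all genes. The median log2 fold change was 0.04 over the members and -0.04 over all genes.

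Serpinb6b had a signal of 3430.5 and 2804 in Prdm1 knockout libraries, against 6201 and 4585 in littermate libraries. The littermates differed from each other by more than the knockouts did, and the groups were separate. The log2 fold change was -0.78 ± 0.17 (SE, adjusted p in limma = 0.043), and with median-of-ratios scaling the adjusted p was 0.0504. Its neighbour Serpinb9, with the BLIMP1 letters in its printed window, had a signal of 3190.0 and 2325 in knockout libraries, against 5258 and 4061 in littermate libraries. In each gene the same littermate library was higher and the same knockout library lower. The log2 fold change of Serpinb9 was -0.76 ± 0.18 (SE, adjusted p = 0.061). It was called without Prdm1 knockout replicate 1 (adjusted p = 0.0015) and without littermate replicate 2 (0.0044), fits in which the single library left is assumed to vary like the other group.

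Nkg7 had a signal of 15158 and 16225 in Prdm1 knockout libraries, against 20965 and 25232 in littermate libraries (log2 fold change -0.55 ± 0.13, SE, adjusted p = 0.061). It was called without littermate replicate 1 (adjusted p = 0.013). Srgn had a signal of 18041 and 17528 in knockout libraries, against 23297 and 24645 in littermate libraries, and its groups were well apart with little spread (log2 fold change -0.43 ± 0.11, SE, adjusted p = 0.078). Serpina3g overlapped between groups, at 9435 and 9189 in knockout libraries and 8433 and 9669 in littermate libraries (log2 fold change 0.04, 95% interval -0.22 to 0.30). The cathepsin genes were on the higher side. Ctsc had 37046 and 34792 in knockout libraries, against 29813 and 30807 in littermate libraries (log2 fold change 0.24, 95% interval -0.06 to 0.55, adjusted p = 0.34). Ctsw had 30985 and 34875 in knockout libraries, against 24774 and 32426 in littermate libraries, which overlap. Lamp1 had 6400.1 and 6322 in knockout libraries, against 4795 and 5732 in littermate libraries (log2 fold change 0.28, 95% interval 0.01 to 0.55, adjusted p = 0.23), and Serpinb6a had 976 and 1034 in knockout libraries, against 725 and 922 in littermate libraries (log2 fold change 0.30, 95% interval -0.06 to 0.65, adjusted p = 0.31).

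The granzyme genes fell in the same knockout libraries. Gzmb had a signal of 18148 and 9309 in Prdm1 knockout libraries, against 178556 and 175775 in littermate libraries (log2 fold change -3.77, adjusted p = 0.0027), and Gzma had 15701 and 7212 in knockout libraries, against 267146 and 277468 in littermate libraries (log2 fold change -4.68, adjusted p = 0.0025). Over the 6 lists, 1 of 67 genes tested was higher and 10 were lower, with a median of -0.15. Of all genes tested, 4.29% were higher and 2.54% lower. Of granzyme and perforin genes 5 of 6 were lower, Prf1 among them (log2 fold change -2.86, adjusted p = 0.0027). Of 23 traffic genes 2 were lower, Sytl2 (3100.1 ± 208 in knockouts, 7570.5 ± 1704 in littermates, SD, n = 2 each, log2 fold change -1.27, limma adjusted p = 0.0080) and Rab27a (log2 fold change -0.52, adjusted p = 0.031). Of 11 chain synthesis genes 2 were lower, Csgalnact2 (log2 fold change -0.80, adjusted p = 0.011) and the sulfotransferase gene Chst12 (log2 fold change -0.54, adjusted p = 0.042). Ctsd was 1 of 11 protease and cystatin genes called (log2 fold change -0.45, adjusted p = 0.043), none of 13 lysosomal membrane genes was called, and Serpinb1a, which encodes an inhibitor of neutrophil proteases, was the 1 of 3 other serpin genes that was higher (199 ± 65.6 in knockouts, 71.4 ± 13.1 in littermates, adjusted p = 0.047). Epithelial markers summed to a signal of 5576 to 6158 in knockout and 3581 to 3626 in littermate libraries, with 7 of 8 higher, and Paneth cell markers to 2440.0 to 12740.0 in knockout and 1111 to 2652 in littermate libraries, with none of 3 called. The IEL markers summed to 251800.0 to 265000.0 in knockout and 298900.0 to 318200.0 in littermate libraries, with none of 6 called. The part of these markers in the members' values was not tested.

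**Figure D4:**
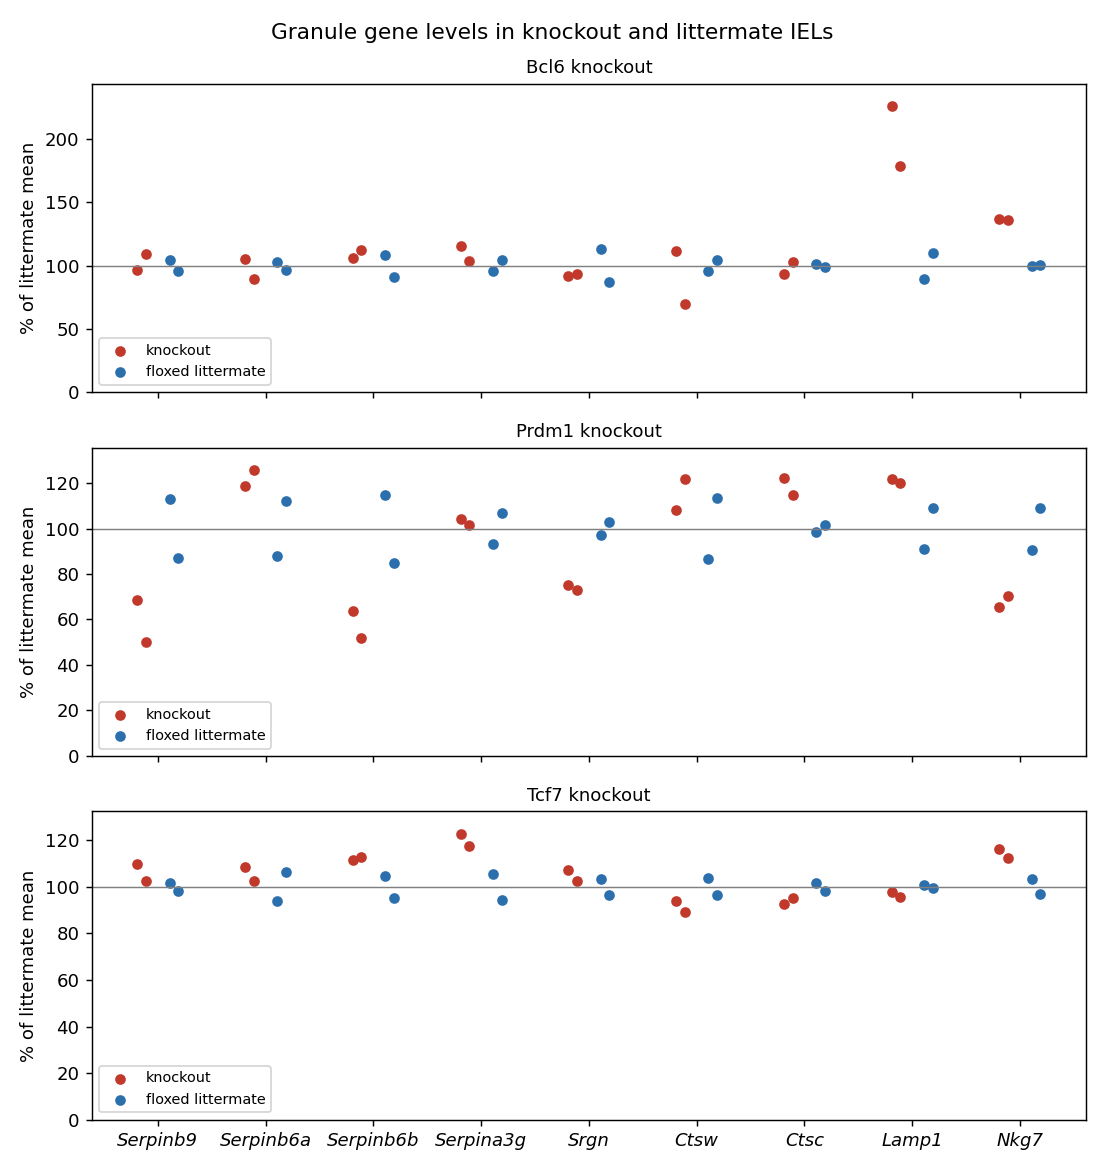
Level of each of the 9 genes in each library as a percent of the littermate mean (grey line at 100), for Bcl6, Prdm1 and Tcf7 knockouts (red) and their floxed littermates (blue), 2 libraries per group; the y axes start at 0 and differ in range. Serpinb9 and Serpinb6b lie lowest in the Prdm1 knockout, and Lamp1 highest in the Bcl6 knockout.

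In the Tcf7 knockout, Serpina3g rose, and the other members did not pass the test. Serpina3g had a signal of 15445 and 14795 in knockout libraries, against 13319 and 11879 in littermate libraries. The lower knockout library was above the higher littermate library, and the log2 fold change was 0.27 ± 0.06 (SE, adjusted p in limma = 0.025). Without knockout replicate 1 it was no longer called (adjusted p = 0.23). In all, 1 member was called higher and 0 lower, against 1.49% of 15210 genes higher, 1.23% lower and 2.72% in either direction. At an unadjusted p under 0.05, 3 members were higher (Serpina3g, Serpinb6b and Nkg7) and 1 lower (Ctsw). Ctsw ranked 1412 of the 15210 genes, so at least 1412 genes passed that threshold in either direction. Groups did not overlap for 4 members on the higher and 3 on the lower side, against 20.9%, 20.7% and, in either direction, 41.6% of all genes. The median log2 fold change was 0.08 over the members and 0.00 over all genes.

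Nkg7 had a signal of 30397 and 29361 in Tcf7 knockout libraries, against 26992 and 25310 in littermate libraries (log2 fold change 0.19 ± 0.05, SE, adjusted p = 0.060). Without littermate replicate 1 it was called (adjusted p = 5.8e-04). Serpinb6b had 5441 and 5499.7 in knockout libraries, against 5106 and 4648.5 in littermate libraries (log2 fold change 0.17, adjusted p = 0.23, and 0.021 without littermate replicate 1). Ctsw had 45005 and 42671 in knockout libraries, against 49607 and 46107 in littermate libraries, the largest negative log2 fold change of the members here, -0.13 (adjusted p = 0.31, and 0.016 without littermate replicate 2). For Serpinb9 the interval was narrow, with 3496 and 3267 in knockout libraries, against 3230.0 and 3130.3 in littermate libraries (log2 fold change 0.09, 95% interval -0.05 to 0.22). For the remaining members, Serpinb6a, Srgn, Ctsc and Lamp1, the log2 fold changes ran from -0.09 (Ctsc) to 0.08 (Serpinb6a).

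In Tcf7 knockouts limma called 1.49% of all genes tested higher and 1.23% lower. Among the granule lists, 14 genes were higher and 2 lower in limma at an unadjusted p under 0.05, with a median of 0.02. Of all 15210 genes tested, at least 1412 passed that unadjusted threshold in either direction. At the adjusted threshold, 5 of 70 list genes tested were higher and 0 lower. These were Gzmb (269828 ± 4767 in knockouts, 185149 ± 9575 in littermates, SD, n = 2 each, log2 fold change 0.54, limma adjusted p = 5.6e-05), Gzma (log2 fold change 0.52, adjusted p = 1.4e-04), Gzmc (log2 fold change 0.65, adjusted p = 0.011), Sytl2 (log2 fold change 0.26, adjusted p = 0.021) and Serpina3f. Serpina3f, the gene whose transcript is closest to that of Serpina3g, had 415 and 438 in knockout libraries, against 237 and 264 in littermate libraries (log2 fold change 0.77, adjusted p = 0.016). Reads of Serpina3g and Serpina3f may have been split by the counting, so their rises are not independent measurements. Of 6 IEL markers tested 1 was called lower, Cd160 (log2 fold change -0.41, limma adjusted p = 2.6e-04), and none higher. Their sum was 450900 to 453200 in knockout and 428800 to 436400 in littermate libraries. Kit was also called lower (log2 fold change -0.58, adjusted p = 1.5e-05). Paneth cell markers summed to a signal of 7563 to 8450.0 in knockout and 4265 to 4786 in littermate libraries, with 3 of 4 higher. Epithelial markers summed to 8103 to 8549 in knockout and 6982 to 7139 in littermate libraries, of which Epcam averaged 5236 and 4525. Myeloid markers summed to 346 to 379 in knockout and 261 to 292 in littermate libraries. B and plasma cell markers summed to 112 to 143 in knockout and 69.5 to 94.96 in littermate libraries. No gene of these epithelial, myeloid, or B and plasma cell lists was called. The part of these markers in the members' values was not tested.

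In the Bcl6 knockout no member passed the test. In limma 0 members were called in either direction, against 0.0313% of 9573 genes higher, 0.387% lower and 0.418% in either direction. At an unadjusted p under 0.05, 2 members were higher, Lamp1 and Nkg7, and 0 were lower. Nkg7 ranked 501 of the 9573 genes, so at least 501 genes passed that threshold in either direction. Lamp1 and Nkg7 were also the 2 members whose groups did not overlap. Without overlap were 19.0% of all genes on the higher side, 14.0% on the lower side and 33.0% in either direction. The median log2 fold change was 0.03 over the members and 0.03 over all genes.

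Lamp1 was at 15.0 and 11.9 FPKM in Bcl6 knockout libraries, against 5.96 and 7.33 FPKM in littermate libraries. The knockout mean was 2.03 times the littermate mean, and the log2 fold change was 0.92 ± 0.19 (SE, adjusted p in limma = 0.14). Nkg7 was at 3752 and 3726 FPKM in knockout libraries, against 2727 and 2750 FPKM in littermate libraries, with replicates within 1% of each other and a log2 fold change of 0.45 ± 0.19 (SE, adjusted p = 0.85). That SE comes from limma's moderated variance, while the SDs of Nkg7 itself were 18.8 FPKM in knockout and 16.2 FPKM in littermate libraries. With quantile normalization the log2 fold change of Nkg7 was 0.089. Nkg7 was called without Bcl6 knockout replicate 1 (adjusted p = 0.024), and Lamp1 without knockout replicate 1 (0.0015) or 2 (2.4e-06). Knockout replicate 1 differed most from replicate 2 in Ctsw, at 1082 and 678 FPKM, against 930.0 and 1008 FPKM in littermate libraries, and without replicate 1 Ctsw was called lower (adjusted p = 0.0043). Without replicate 1, calls over all 9902 genes tested also numbered 730 higher and 832 lower, and without replicate 2 they were 68 and 131 of 9806, against 3 and 37 with all libraries.

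Together the 9 genes took 1.73 to 1.76% of all FPKM in Bcl6 knockout libraries and 1.49 to 1.495% in littermate libraries. In the order of mean levels Nkg7, Ctsw, Srgn and Ctsc led in both groups, and Lamp1 stood above Serpinb6a in knockouts but below it in littermates.

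The remaining members overlapped between Bcl6 knockouts and littermates. Serpinb9 was at 56.6 and 64.0 FPKM in knockout libraries and 61.5 and 56.2 FPKM in littermate libraries (log2 fold change 0.03, 95% interval -0.33 to 0.40). Serpinb6b was at 95.3 and 100.7 FPKM in knockout libraries and 97.6 and 81.9 FPKM in littermate libraries (log2 fold change 0.13, 95% interval -0.24 to 0.51). Serpina3g, Serpinb6a, Srgn and Ctsc had log2 fold changes from -0.10 (Srgn) to 0.13 (Serpina3g). Per 1000 FPKM of Gzmb there were 10.4 and 15.7 FPKM of Serpinb9 in knockout libraries and 12.3 and 12.0 FPKM in littermate libraries (two-sided exact permutation p = 1.0, where 2 against 2 libraries allow no p below 0.333). Of 66 granule list genes tested, limma called 0 higher and 0 lower, and 1 was higher and 3 lower at an unadjusted p under 0.05, with a median of 0.01. Of all genes tested, limma called 0.0313% higher and 0.387% lower. At least 501 of these 9573 genes passed the unadjusted threshold in either direction. Paneth cell markers summed to 48.4 to 50.2 FPKM in knockout and 200.5 to 209.9 FPKM in littermate libraries, with 3 of 4 lower, and myeloid markers to 16.4 to 41.7 FPKM in knockout and 14.7 to 17.9 FPKM in littermate libraries. Their part in the values of Lamp1 and Nkg7 was not tested.

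Of the 2 windows with the BCL6 pattern, that of Ctsc, whose groups overlapped in the Bcl6 knockout, is not printed. In the main limma fits Nkg7 was called only in the sorted cells, while DESeq2 also called it lower in the Prdm1 knockout (adjusted p = 0.0017). Nkg7 was separate between groups in all 4 comparisons, as was Lamp1. Within single comparisons 33.0 to 52.4% of all genes were separate. The share of all genes separate in all 4 at once was not computed, so nothing is drawn from this separation. The Nkg7 promoter is shown because Nkg7 had the smallest adjusted p of the members in the sorted cells. Lamp1, with the larger log2 fold change in the Bcl6 knockout (0.92, against 0.45 for Nkg7), had no BCL6 pattern in its window. Over the members the pattern thus did not go along with the difference in the Bcl6 knockout, and a link to BCL6 was not tested. It is the RefSeq window chr7:43436888-43437187 on GRCm38.p6, plus strand, 5′ to 3′, and capitals mark the BCL6 pattern TTCCTNGAA, found on the opposite strand at bases 31 to 39 as TTCCAGGAA.
Nkg7: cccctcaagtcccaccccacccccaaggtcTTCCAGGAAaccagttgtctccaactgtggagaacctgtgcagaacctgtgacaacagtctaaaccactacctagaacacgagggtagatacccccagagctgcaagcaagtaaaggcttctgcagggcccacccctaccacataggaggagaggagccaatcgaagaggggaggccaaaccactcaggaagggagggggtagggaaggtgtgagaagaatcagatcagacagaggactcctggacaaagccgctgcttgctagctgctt

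**Figure D5:**
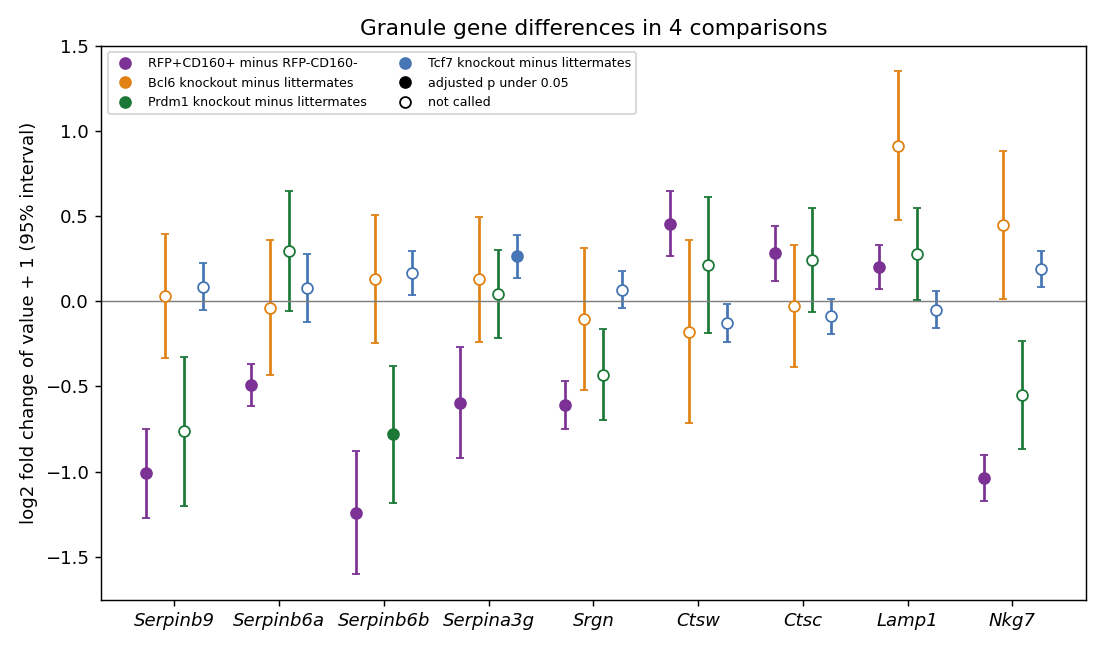
log2 fold change of value + 1 (y axis) with its 95% interval for the 9 genes in RFP+CD160+ minus RFP-CD160- cells and in Bcl6, Prdm1 and Tcf7 knockouts minus littermates; filled points had a limma adjusted p under 0.05. All 9 points of the sorted comparison are filled, with Serpinb6b in the Prdm1 knockout and Serpina3g in the Tcf7 knockout the other filled points.

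Set side by side, the log2 fold changes of Nkg7 were -1.04 in the sorted cells, 0.45 in the Bcl6 knockout, -0.55 in the Prdm1 knockout and 0.19 in the Tcf7 knockout. Serpinb9 gave -1.01, 0.03, -0.76 and 0.09 in the same order, Serpinb6b -1.24, 0.13, -0.78 and 0.17, and Srgn -0.61, -0.10, -0.43 and 0.07. Ctsc gave 0.28, -0.03, 0.24 and -0.09, and Ctsw 0.46, -0.18, 0.21 and -0.13. Differences between the experiments were not tested, and the 4 comparisons share no libraries. Likeness was measured by the largest difference between 2 genes over these 4 log2 fold changes, across 9030 genes tested in every comparison. Gng2, a G protein subunit gene, was the gene most like Serpinb9 (largest difference 0.0528), Tor4a most like Srgn (0.0335), Mtg1 most like Ctsc (0.0301), Rps9 most like Ctsw (0.0581) and Ccdc85c most like Nkg7 (0.117). Serpinb6b was closest to Susd3 (0.138) and Lamp1, the member with the least similar neighbour, to Zfp512b (0.198).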

How the data were processed

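Bulk RNA-seq values were used as the authors deposited them, and the members and gene lists were chosen with earlier results of these data known. Per the submitters' processing notes, the tools were Bowtie2, RSEM, featureCounts (Subread), DESeq2 and Trim Galore 0.4.4 with build mm10, with no role or order given. The RFP and Bcl6 tables hold FPKM deposited by the authors. The Prdm1 and Tcf7 tables were deposited as FPKM but hold a signal, whole reads divided by a size factor (100% of values whole within 0.01 of a read). FPKM times gene length gave whole reads for 95.7 to 98.9% of low values (tolerance 0.05), which gave depth.

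Each experiment was fitted alone on log2(value + 1) with limma 3.58.1 (R 4.3.3; lmFit, eBayes with trend, no covariates, two-sided), over genes with at least 1 FPKM, or a signal of 50, in a number of libraries equal to the smaller group. P-values were adjusted by Benjamini-Hochberg over all genes tested, with a threshold of 0.05, and fold changes understate those of low genes. The fits were tested on simulated data with 200 changed genes. For Prdm1, edgeR 4.0.16 and DESeq2 1.42.0 on recovered reads were alternatives. Text names all members, the deleted and sorted genes, Gzma and Gzmb, up to 3 called genes per list by smallest p, and the nearest genes in log2 fold change. The text's groups come from the labels, and gene coordinates from GENCODE vM21.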

Additional observations from a re-analysis of the deposited data

Results flagged for a closer look

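In the 2 libraries titled LI, which the labels put in no group and no comparison used, Ctsw stood at 531 and 514 FPKM. The lower of these, 513.8 FPKM, was above all 3 RFP-CD160- libraries, whose highest was 466 FPKM, and below all 3 RFP+CD160+ libraries, whose lowest was 575 FPKM. It was listed because it is a signal in libraries outside the comparisons that exceeds the level of the RFP-CD160- cells.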

How the results depend on the processing

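All 9 members kept direction and call in the sorted cells under the other pseudocount, no filter, 3 rescalings and the replicate block. Leaving out a library gave 2 to 3 members higher and 6 lower there, 4 to 5 list genes higher and 24 to 31 lower. Rescaled totals gave 14 list genes higher and 21 lower, and quantile normalization 8 higher. In the Bcl6 knockout, leaving out a library gave 0 to 2 members higher and 0 to 1 lower, and 0 to 6 list genes higher and 0 to 11 lower. In the Prdm1 knockout it gave 0 members higher and 1 to 2 lower, and 1 to 3 list genes higher and 7 to 9 lower. In the Tcf7 knockout it gave 0 to 3 members higher and 0 to 1 lower, and 2 to 7 list genes higher and 0 lower.

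For Prdm1, members lower numbered 2 with rescaled totals, 0 with median of ratios and 4 with DESeq2, against 1 with limma and edgeR. List genes higher were 0 with no filter or quantile normalization, 2 with rescaled totals and 4 with DESeq2. Calls over all genes were also more with DESeq2, 804 higher and 426 lower of 13624, against 471 and 279 of 10969 in limma. For Tcf7, quantile normalization gave 2 members and 3 list genes higher.

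In the labels, same-numbered libraries shared only a number, and whether they were paired is not given. Correlations of their deviations were 0.528 for Prdm1, 0.064 for Tcf7, -0.459 for Bcl6 and -0.331 to 0 for the sorted cells. With replicate as a block, Prdm1 gave 1 member higher and 4 lower and 6 list genes higher and 20 lower (edgeR 2, 4, 9 and 19), and Tcf7 gave 3 members higher and 1 lower and 9 list genes higher and 1 lower. Calls rose over all genes too, to 1210 higher and 1176 lower for Prdm1 (471 and 279 without the block; edgeR with the block 1522 and 1101) and 495 and 482 for Tcf7 (226 and 187 without). The crossed pairing for Bcl6, chosen after seeing the data, gave 1 member higher and 2 list genes lower, and 180 higher and 272 lower over all genes.

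Directions turned for members near 0. Serpinb9 in the Bcl6 knockout was -0.0025 with rescaled totals and -0.0041 with quantile normalization, under which Ctsw was -0.036 and Nkg7 0.089 there. Without 1 library, Bcl6 log2 fold changes ran from -0.054 to 0.12 for Serpinb9, -0.14 to 0.071 for Serpinb6a, -0.29 to 0.087 for Srgn, -0.51 to 0.16 for Ctsw and -0.093 to 0.042 for Ctsc. They ran from -0.054 to 0.14 for Serpina3g in Prdm1 and from -0.0097 to 0.17 for Serpinb6a in Tcf7. The causes were not tested. Count tests for Tcf7 were not run. SEs of the members' log2 fold changes were 0.16 to 0.24 for Bcl6, 0.11 to 0.18 for Prdm1, 0.047 to 0.093 for Tcf7 and 0.054 to 0.16 in the sorted cells.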
